A study of Mus musculus with 16 samples.

Results

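The Egr genes (Egr1, Egr2, Egr3 and Egr4) encode zinc finger transcription factors that neurons switch on within minutes of synaptic activity. They were followed here in the striatum of 2 inbred mouse strains with and without risperidone. Members were the probe sets whose only gene symbol in the platform's annotation is 1 of these 4 genes. There were 5 such probe sets among 45037 tested: 1417065_PM_at for Egr1, 1427683_PM_at and 1427682_PM_a_at for Egr2, 1421486_PM_at for Egr3 and 1449977_PM_at for Egr4. The whole array has 17097 named genes. The family was chosen by values of these same arrays, namely the low Egr2 and Egr1 levels of DBA/2J mice after risperidone. The values of that contrast, and of the comparison between control mice, which shares its DBA/2J control arrays, are therefore given as a description, without a p value for the members.

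Egr proteins bind GC-rich sites through their zinc fingers. In neurons, calcium entry and dopamine receptor signalling activate ERK kinases, which phosphorylate ELK factors bound with SRF at Egr promoters, and the transcript is short-lived. Egr1 (also called Zif268) takes part in late-phase synaptic plasticity and memory, Egr2 (Krox20) patterns the hindbrain and drives myelination by Schwann cells, Egr3 acts in muscle spindle development and memory, and Egr4 is the least studied of the family. Antipsychotics that block dopamine D2 receptors are known to alter early gene levels in the striatum.

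Striatal RNA of male mice aged 7 to 8 weeks was hybridised to 16 Affymetrix perfect-match arrays. The 4 groups of 4 samples, labelled as biological replicates, were DBA/2J given risperidone, DBA/2J control, A/J given risperidone and A/J control. Risperidone, which blocks receptors of serotonin and dopamine and is used against psychosis, was injected once daily at 1 mg/kg for 3 days. Control mice are labelled untreated, while the protocol text names saline injections. The mice carry no engineered allele. The time between the last injection and tissue collection is not given in the sources used here.

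Promoters are shown for Egr2, whose groups differed most, and Egr4, whose groups overlapped within each strain. Of the 4 genes, these 2 had windows among those searched (RefSeq, GRCm38.p6), 5 for Egr2 and 1 for Egr4, each of 300 bases. All windows of 1 chromosome had been left out before the search, so a gene there could have no window. The shares of windows given below leave out that chromosome too. Capitals mark a CArG box, the site bound by SRF, and the short element TGACG (or its reverse complement), part of the cAMP response element bound by CREB.
Egr2, chr10:67537619-67537918, plus strand: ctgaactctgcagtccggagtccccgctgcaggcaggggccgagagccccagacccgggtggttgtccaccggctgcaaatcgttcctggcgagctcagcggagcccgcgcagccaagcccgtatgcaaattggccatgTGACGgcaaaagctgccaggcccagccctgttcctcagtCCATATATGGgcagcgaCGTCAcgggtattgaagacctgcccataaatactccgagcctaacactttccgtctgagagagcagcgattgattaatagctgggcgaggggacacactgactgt
Egr4, chr6:85513540-85513839, minus strand: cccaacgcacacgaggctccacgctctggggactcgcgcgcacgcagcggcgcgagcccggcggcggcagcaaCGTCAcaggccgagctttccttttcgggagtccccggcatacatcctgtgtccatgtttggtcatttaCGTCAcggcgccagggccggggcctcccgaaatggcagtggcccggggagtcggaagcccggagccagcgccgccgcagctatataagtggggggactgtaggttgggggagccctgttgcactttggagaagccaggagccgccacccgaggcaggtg
In the Egr2 window the CArG box fills bases 179 to 188, and short elements start at bases 140 and 196. The Egr4 window has short elements at bases 74 and 142 and no CArG box. A CArG box was present in 1.63% of 32851 promoter windows and in 4 of the 5 Egr2 windows, 3 of which overlap. The short element was present in 20.8% of windows. Motifs were searched on both strands, and the full element (TGACGTCA), the EGR sites GCGGGGGCG and GCGTGGGCG, the ETS site CCGGAA and the TATA box TATAAA had no match in either printed window. These 5 were present in 1.79%, 2.91%, 0.612%, 14.9% and 13.6% of the windows searched, in that order. Among the other Egr2 windows, chr10:67537316-67537615 held 3 ETS matches, of which 2 overlap, beside a CArG box. The Egr2 window was picked after its matches were seen. These matches describe letters, not bound sites.

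Some arrays stood apart from their labels or their group. Strain markers (46 to 49 probe sets per array) placed each array between the mean of A/J and the mean of DBA/2J controls, and the DBA/2J share was 27.9%, 36.2%, 0.584% and 39.1% in A/J risperidone replicates 1 to 4, against -2.30% to 0.993% in A/J control arrays. It was 87.6% in DBA/2J risperidone replicate 1, 94.6% to 101.565% in the other 3, and 96.1% to 103.249% in DBA/2J controls. DBA/2J control replicate 4 correlated with the other arrays at 0.970 to 0.979, below the highest correlation of every other array, which was at least 0.991. DBA/2J risperidone replicates 2, 3 and 4 carry the same description code in the labels, so that 4 separate mice in that group rest on the replicate numbers in the titles. No 2 arrays held identical values, and array medians lay between 5.66 and 5.71 (log2). The striatal markers Penk (6.13 to 7.98), Ppp1r1b (5.99 to 7.57) and Drd2 (3.62 to 4.9) were measured beside Slc17a7, a marker of cortical excitatory neurons (9.52 to 10.2), and levels of different probe sets cannot be ranked. The Drd2 values lay below every array's median. Other cortical markers lay above the medians in every array, such as Tbr1 (8.06 to 8.79) and Neurod2 (8.57 to 9.27), but Emx1 (4.89 to 5.79) did not. Among striatal markers, Drd1 (5.85 to 6.51) and Rgs9 (5.73 to 6.27) lay little above the medians. Bcl11b (8.95 to 9.4) and Foxp1 (8.33 to 8.91), from the same list, lay well above them. Whether their signal came from striatal or cortical cells was not tested. How much cortical tissue the striatal samples held was not tested. In bulk tissue, fewer cells of a type and less RNA per cell cannot be told apart.

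Egr2 had the widest spread among the groups. Its probe set 1427683_PM_at had log2 levels of 7.56, 8.1, 7.57 and 7.89 in DBA/2J risperidone mice, against 8.8, 9.14, 8.77 and 9.03 in DBA/2J controls. In A/J the levels were 8.09, 8, 8.08 and 8 in risperidone mice, against 8.11, 8.12, 8.4 and 8.54 in controls. All 4 DBA/2J controls lay above the other 12 arrays, and 3 of the 4 DBA/2J risperidone arrays lay below every A/J array. By group mean the order from high to low was DBA/2J control, A/J control, A/J risperidone and DBA/2J risperidone. Within A/J the highest risperidone array, at 8.09, lay just below the lowest control, at 8.11, and the risperidone groups of the strains overlapped.

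The second Egr2 probe set, 1427682_PM_a_at, gave the same order of groups. It had 6.66, 7.08, 6.63 and 7.05 in DBA/2J risperidone mice, against 7.97, 8.23, 7.87 and 8.02 in DBA/2J controls. The A/J values were 7.1, 7.15, 7.1 and 7.22 in risperidone mice, against 7.1, 7.38, 7.44 and 7.77 in controls. Here all DBA/2J risperidone arrays lay below all A/J arrays, the closest at 7.08 against 7.1, while the A/J groups overlapped. Both Egr2 probe sets come from the same 16 RNA samples and are not replicates of each other.

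Egr1, the family member with the broadest use as a marker of neuronal activity, had 10.16, 10.64, 10.34 and 10.57 in DBA/2J risperidone mice, against 11.01, 11.11, 10.89 and 11.24 in DBA/2J controls. In A/J it had 10.47, 10.53, 10.35 and 10.48 in risperidone mice, against 10.69, 10.71, 10.43 and 10.65 in controls. The DBA/2J controls were again above all 12 other arrays. The A/J groups overlapped through control replicate 3, at 10.43. The A/J risperidone arrays (10.35 to 10.53) lay within the wider range of the DBA/2J risperidone arrays (10.16 to 10.64). The order of group means was DBA/2J control, A/J control, A/J risperidone and DBA/2J risperidone.

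Egr3 varied little. It had 6.41, 6.58, 6.61 and 6.53 in DBA/2J risperidone mice, against 6.57, 6.9, 6.73 and 6.81 in DBA/2J controls. The A/J values were 6.66, 6.84, 6.44 and 6.58 in risperidone mice, against 6.62, 6.68, 6.47 and 6.86 in controls. All 4 groups overlapped. Egr4 had 5.89, 5.9, 6.05 and 5.75 in DBA/2J risperidone mice, against 6.14, 6.17, 5.9 and 6.35 in DBA/2J controls. In A/J it had 6.04, 5.9, 5.55 and 5.64 in risperidone mice, against 6.03, 5.93, 5.97 and 5.95 in controls. Its groups overlapped within each strain, and the A/J controls were the tightest group, with an SD of 0.04 against 0.23 in A/J risperidone mice.

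**Figure D1:**
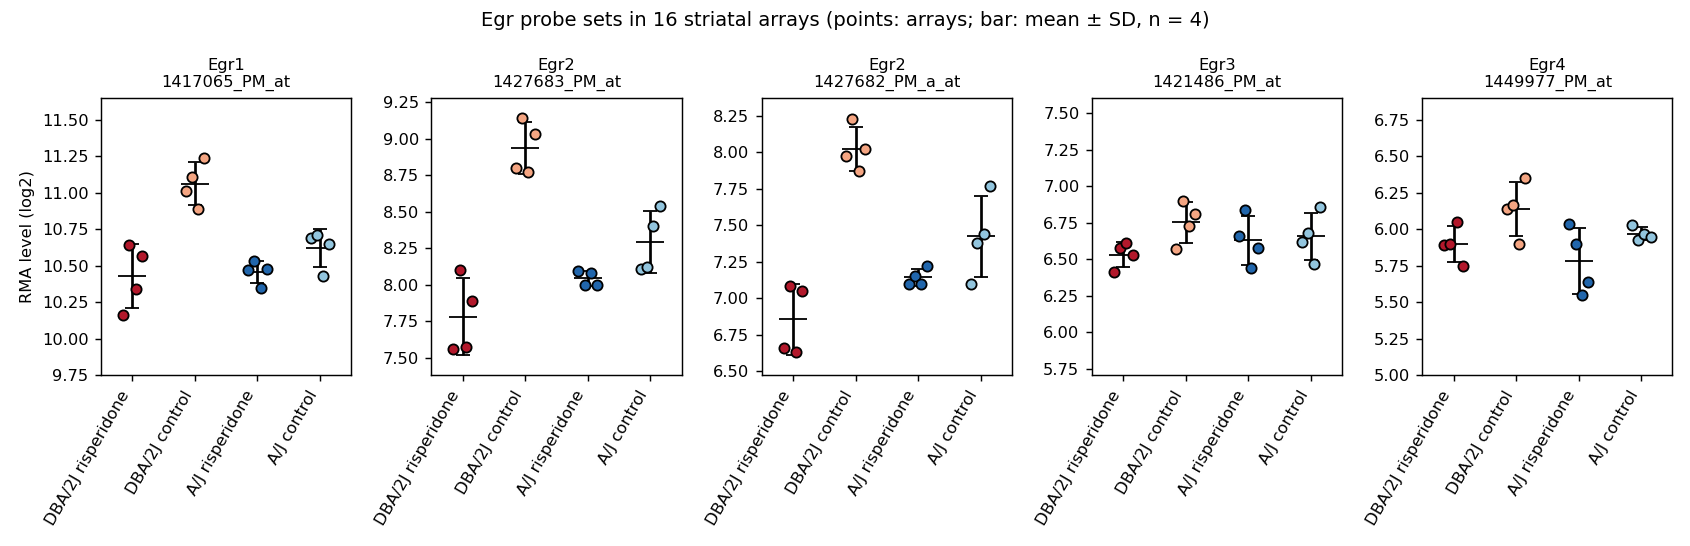
RMA levels on the log2 scale of the 5 Egr probe sets in each array, by group; points are arrays, bars are mean ± SD (n = 4), and every panel spans the same range. The DBA/2J controls stand above all other arrays for Egr1 and both Egr2 probe sets, while the groups of Egr3 overlap.

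In DBA/2J, all 5 probe sets were lower after risperidone than in controls, where 50.9% of all probe sets had a difference below 0. Egr2 averaged 7.78 ± 0.26 after risperidone and 8.94 ± 0.18 in controls (SD, n = 4 each), a log2 difference of -1.16 ± 0.13 (SE) or 2.23-fold lower, and -1.17 ± 0.13 by its other probe set. Egr1 averaged 10.43 ± 0.22 after risperidone and 11.06 ± 0.15 in controls, a difference of -0.64 ± 0.11 or 1.55-fold lower. Egr3 differed by -0.22 ± 0.10 and Egr4 by -0.24 ± 0.11, so their differences were well under that of Egr2. The risperidone and control arrays did not overlap for 3 of the 5 probe sets, against 2.51% of all probe sets that were lower without overlap, and the same 3 were called at an adjusted p under 0.05 in limma, against 0.0333% called lower. These counts come from the contrast that led to the family and nothing is read from them.

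The DBA/2J values depended on the arrays and spread used. Without the 5 arrays that stand apart (A/J risperidone replicates 1, 2 and 4, DBA/2J risperidone replicate 1 and DBA/2J control replicate 4) the difference was -1.05 ± 0.15 for Egr2 and -0.49 ± 0.11 for Egr1, and no Egr probe set was called. With the 8 DBA/2J arrays alone none was called either, at -1.16 ± 0.14 for Egr2 and -0.64 ± 0.12 for Egr1. With each of the 16 arrays left out in turn the difference ranged from -1.26 to -1.08 for Egr2 and from -0.71 to -0.55 for Egr1. These ranges describe values by which the family was chosen and support nothing. Egr1 was called in 4 of the 16 fits, those without DBA/2J risperidone 2, DBA/2J risperidone 4, DBA/2J control 3 or A/J control 3.

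In A/J no Egr probe set passed over all probe sets (limma, 0 of 5, against 0% of all probe sets called). At an unadjusted p under 0.05 there was 1 of 5, against 2483 of all 45037 probe sets. All 5 values were negative, and 49.6% of all probe sets had a difference below 0. Egr2 averaged 8.04 ± 0.05 after risperidone and 8.29 ± 0.21 in controls (SD, n = 4 each). Its difference was -0.25 ± 0.13 (SE, 95% interval -0.51 to 0.01, limma adjusted p = 0.925), and -0.28 ± 0.13 by the other probe set (-0.55 to -0.01, limma adjusted p = 0.897). Egr1 had -0.16 ± 0.11 (-0.39 to 0.06, limma adjusted p = 0.959).

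Egr4 had a difference of -0.19 ± 0.11 in A/J (95% interval -0.42 to 0.04, limma adjusted p = 0.949) and Egr3 one of -0.03 ± 0.10 (-0.24 to 0.19, limma adjusted p = 0.997). For Egr2 the values of 1427683_PM_at did not overlap between the A/J groups, as was so for 2.08% of all probe sets in that direction. Replicate 3, the A/J risperidone array whose strain markers match A/J, lay 0.27 below the A/J control mean for Egr1, 0.21 below it for Egr2 (0.32 by the other probe set), 0.22 below it for Egr3 and 0.42 below it for Egr4. With that array alone as the A/J risperidone group, the fit gave -0.27 ± 0.18 for Egr1, -0.21 ± 0.22 for Egr2, -0.22 ± 0.16 for Egr3 and -0.42 ± 0.16 for Egr4 (limma adjusted p = 0.999 for each), its spread taken from the other groups. With the DBA/2J share as a covariate, the A/J difference was -0.27 ± 0.16 for Egr1 and -0.22 ± 0.20 for Egr2 (-0.34 ± 0.20 by the other probe set). It was -0.20 ± 0.15 for Egr3 and -0.34 ± 0.16 for Egr4, and no member was called. Within groups the share varied most in A/J risperidone mice, so the covariate fit also leaned on replicate 3 and is no separate check. The part of mixed strain signal in the A/J values was not tested beyond these fits.

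The difference between the strains in their response was described for the family. With the response of A/J subtracted from that of DBA/2J, Egr2 had -0.91 ± 0.18 (95% interval -1.28 to -0.53, limma adjusted p = 0.222), and -0.89 ± 0.18 by its other probe set (adjusted p = 0.235). Egr1 had -0.47 ± 0.15 (-0.79 to -0.16, limma adjusted p = 0.413). Of all probe sets 51.1% lay below 0. None of the 5 passed, as none of all probe sets did (limma, 0%), while 3 of the 5 had an unadjusted p under 0.05, against 4140 of all probe sets. Egr3 had -0.19 ± 0.14 (-0.49 to 0.11, limma adjusted p = 0.687) and Egr4 had -0.06 ± 0.16 (-0.38 to 0.27, limma adjusted p = 0.931). This contrast contains the DBA/2J difference by which the family was chosen. Its p values and counts are thus no test of the family, and nothing is read from them. With A/J risperidone replicate 3 as the only array of its group, Egr2 had -0.94 ± 0.26 (limma adjusted p = 0.826) and Egr1 -0.37 ± 0.22 (limma adjusted p = 0.982).

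Averaged over both strains, the risperidone difference was -0.70 ± 0.09 (SE) for Egr2, -0.40 ± 0.08 for Egr1, -0.22 ± 0.08 for Egr4 and -0.12 ± 0.07 for Egr3. Both Egr2 probe sets were called in limma, against 0.02% of all probe sets called lower, and the other 3 were not. The average contains the DBA/2J contrast, and nothing is read from the count. It was 0 without the 3 A/J risperidone arrays of mixed strain signal and 0 without the 5 arrays that stand apart, with Egr2 at -0.68 ± 0.13 and -0.63 ± 0.13.

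**Figure D2:**
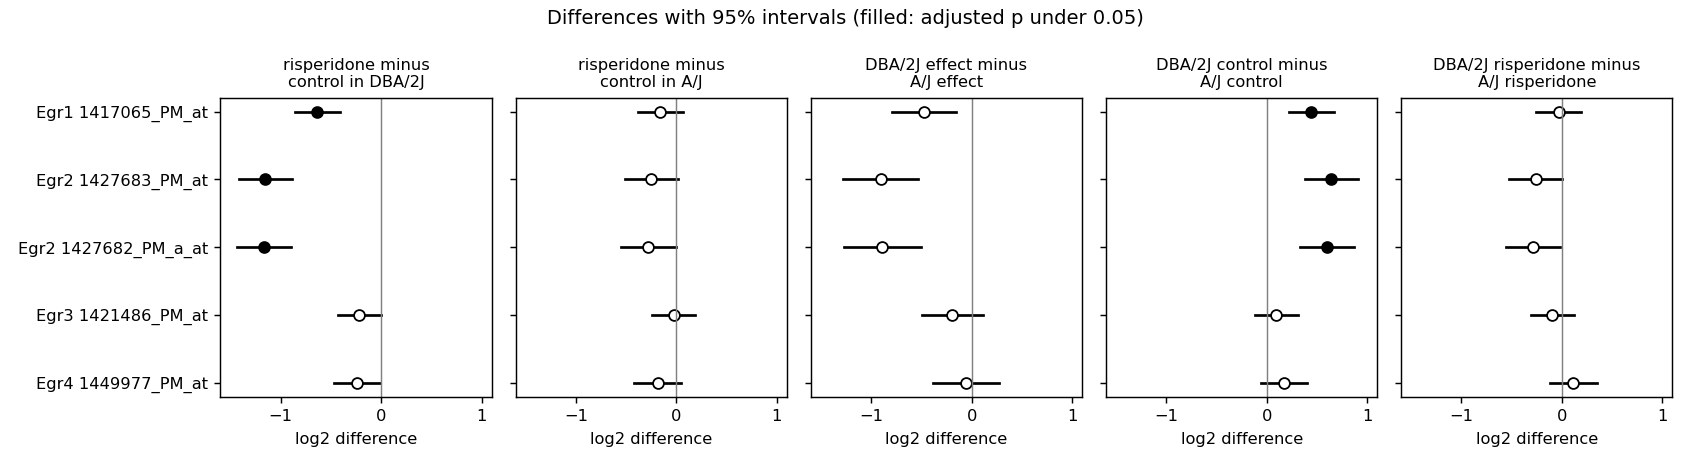
Log2 differences of the 5 Egr probe sets with 95% intervals in 5 comparisons; filled points had a limma adjusted p under 0.05 over all probe sets. Egr2 and Egr1 lie below 0 for risperidone in DBA/2J and above 0 for DBA/2J against A/J controls, and lie near or below 0 between the strains after risperidone.

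Between control mice, the DBA/2J arrays are also those of the contrast by which the family was chosen, so high Egr1 and Egr2 values in them were favoured by that choice. Egr2 was at 8.94 ± 0.18 in DBA/2J against 8.29 ± 0.21 in A/J controls (SD, n = 4 each), a log2 difference of 0.64 ± 0.13 (SE, 95% interval 0.38 to 0.91). Its other probe set had 0.60 ± 0.13, at 8.02 ± 0.15 in DBA/2J and 7.42 ± 0.28 in A/J. Egr1 had 0.44 ± 0.11 (0.22 to 0.67), at 11.06 ± 0.15 in DBA/2J and 10.62 ± 0.13 in A/J. Egr4 had 0.17 ± 0.11 and Egr3 0.10 ± 0.10, with groups that overlapped for Egr3 and Egr4.

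In this comparison 3 of 5 Egr probe sets were called higher in limma, against 2.01% of all probe sets, and the same 3 did not overlap between the strains, against 4.91%; nothing is read from these counts. With each array left out in turn the difference ranged from 0.57 to 0.73 for Egr2 and from 0.38 to 0.50 for Egr1, and Egr1 was not called without DBA/2J control replicate 2 (0.43), DBA/2J control replicate 4 (0.38) or A/J control replicate 3 (0.38). Egr1 was also not called with the 8 control arrays alone (0.44 ± 0.10) or without the 3 A/J risperidone arrays of mixed strain signal (0.44 ± 0.12). Without the 5 arrays that stand apart Egr2 had 0.61 ± 0.14 and was called, while its other probe set, at 0.60 ± 0.15, and Egr1, at 0.38 ± 0.10, were not. Of 12 other settings the Egr1 call held in 6.

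Between the risperidone groups, of which the DBA/2J arrays also belong to the contrast that led to the family, Egr1 differed by -0.03 ± 0.11 (95% interval -0.25 to 0.19, limma adjusted p = 0.966), at 10.43 ± 0.22 in DBA/2J and 10.46 ± 0.08 in A/J (SD). Egr2 differed by -0.26 ± 0.13 (-0.53 to 0.00197, limma adjusted p = 0.536), and by -0.29 ± 0.13 with its other probe set (-0.56 to -0.01, limma adjusted p = 0.491), which was the only member without overlap, against 3.53% of all probe sets lower in DBA/2J without overlap. Egr3 had -0.10 ± 0.10 (limma adjusted p = 0.837) and Egr4 had 0.12 ± 0.11 (limma adjusted p = 0.818). No member passed (limma, 0 of 5, against 0.782% of all probe sets called), and 1 had an unadjusted p under 0.05, against 4247 of all probe sets. Because of the shared DBA/2J arrays, nothing is read from these p values and counts. With A/J risperidone replicate 3 alone, Egr1 turned to 0.08 ± 0.18, Egr3 turned to 0.09 ± 0.16 and Egr2 had -0.30 ± 0.22 (limma adjusted p = 0.999 for each). Egr4 had 0.35 ± 0.16 in that fit (limma adjusted p = 0.742) and 0.35 ± 0.14 without the 5 arrays that stand apart (limma adjusted p = 0.471).

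Members varied together to unequal degrees over the 16 arrays, which share 4 groups and 2 strains. Pearson's r was 0.98 between the Egr2 probe sets and 0.89 between Egr1 and Egr2 (1427683_PM_at). It was 0.64 between Egr1 and Egr3, 0.65 between Egr1 and Egr4, 0.59 between Egr2 and Egr3, and 0.56 between Egr2 and Egr4. After each array's group mean was subtracted, r was 0.87 between the Egr2 probe sets, 0.49 between Egr1 and Egr2, 0.55 between Egr1 and Egr3, and 0.04 between Egr2 and Egr4. Within groups, Egr2 and Egr4 thus showed next to no relation, and these values are descriptions over 16 arrays.

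The genes most like a member were taken from 9940 genes above the median level. Over the values of all 16 arrays, Egr2 was closest to Srpk1, a splicing factor kinase gene (r = 0.95), Fos, an AP-1 subunit (0.92), Arc, a regulator of AMPA receptor trafficking (0.90), Dusp1, a MAP kinase phosphatase (0.90), and Nr4a1, an orphan nuclear receptor (0.88). Egr1 was closest to Kcnh5, a potassium channel gene, Arc, Fos and the glutamate receptor gene Grm3 (r = 0.90 each) and to Ddit4l (0.88). Egr3 was closest to Wdr38 (0.86), Nxpe2 (0.83) and Akt2, a protein kinase gene (0.79), and Egr4 to Snrpa, a spliceosome protein gene (0.80), Tm6sf1 (0.80) and Brdt (0.77). The early genes Fos and Arc were among the first 5 of Egr1 and Egr2 and of neither Egr3 nor Egr4.

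With group means removed, Fos was still the first neighbour of Egr2 (r = 0.84), followed by Atg2a, an autophagy gene (0.83), and Ppm1a, a protein phosphatase gene (0.82). Fos had r = 0.73 with Egr1, 0.49 with Egr3 and 0.07 with Egr4 on that scale. The first neighbours were Dmtn (0.88) for Egr1, Wdr38 (0.90) for Egr3 and Sirpa (0.87) for Egr4, and no gene was shared among the first 5 of different members. In DBA/2J the array with the highest Egr2 level in each group was replicate 2, which also had the highest Fos level among the controls (8.94).

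**Figure D3:**
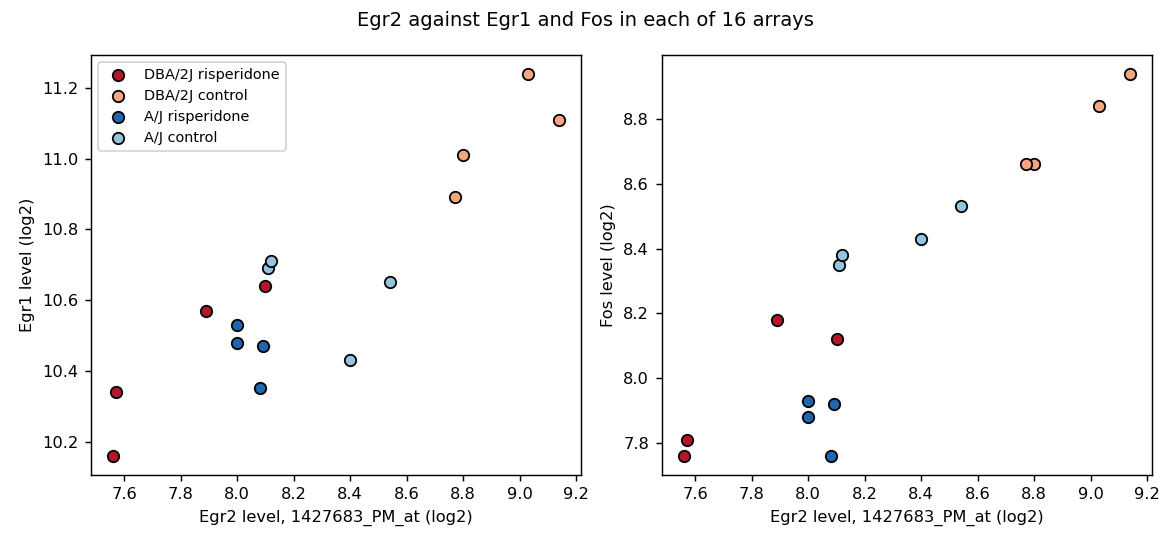
Log2 levels of Egr1 (left) and Fos (right) against Egr2 in each of the 16 arrays, coloured by group. The 4 DBA/2J control arrays hold the highest Egr2, Egr1 and Fos levels, and DBA/2J risperidone replicates 1 and 3, at Egr2 levels of 7.56 and 7.57, the lowest Egr2 and Egr1 levels.

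Genes that act with the Egr factors were described from lists chosen with earlier results of these data known. Of the NAB corepressors and other partners, 5 of 6 were measured and 0 were called for risperidone in DBA/2J, at a median of -0.07 against -0.005 over all probe sets. Nab2, which binds Egr factors and represses their activity, had 7.35, 7.36, 7.64 and 7.35 in DBA/2J risperidone mice, against 7.38, 7.39, 7.45 and 7.15 in DBA/2J controls. Its difference was 0.08 ± 0.10 (limma adjusted p = 0.778), and that of its relative Nab1 was -0.04 ± 0.07 (limma adjusted p = 0.871), with overlap for both. In A/J the median of the list was 0.07 and 0 were called.

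Upstream, 12 of 17 genes of the SRF, ELK and ERK pathway were measured. Of these, 9 were lower in DBA/2J after risperidone, against 50.9% of all probe sets, with a median of -0.04. In A/J 9 were lower, against 49.6% of all probe sets, with a median of -0.01, and 0 were called in either strain. The smallest p values in DBA/2J were those of Map2k1, which encodes the ERK kinase MEK1 (0.20 ± 0.08, limma adjusted p = 0.395), Mrtfa, an SRF coactivator gene (0.21 ± 0.09, limma adjusted p = 0.422), and Elk3, an ETS factor that represses with SRF (-0.24 ± 0.11, limma adjusted p = 0.451). Srf itself had 8.12 ± 0.09 after risperidone and 8.17 ± 0.09 in DBA/2J controls (SD, n = 4 each).

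Of 20 genes described as Egr targets, 15 were measured. In DBA/2J 10 were lower after risperidone, with a median of -0.04, and 1 was called, Arc, which Egr1 and Egr3 are known to bind. Of all probe sets, 50.9% were lower in that contrast and 0.0333% were called lower. Arc had 8.88, 9.57, 9.35 and 9.42 in DBA/2J risperidone mice, against 9.88, 10.19, 10.04 and 10.27 in DBA/2J controls, without overlap (-0.79 ± 0.13, limma adjusted p = 0.0367). This contrast led to the family, and Arc followed Egr1 and Egr2 over the same arrays (r = 0.90 each). Nothing is therefore read from that p value. In A/J 11 of 15 targets were lower, against 49.6% of all probe sets, with a median of -0.07 and 0 called. Arc had -0.41 ± 0.13 there (limma adjusted p = 0.649). Other targets with the smallest p in DBA/2J were Cblb, a ubiquitin ligase gene (-0.18, limma adjusted p = 0.464), and Gabra4, a GABA-A receptor subunit gene (-0.14, limma adjusted p = 0.526).

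The AP-1 family, another set of early genes, was the nearest comparison. All 7 genes were lower in DBA/2J after risperidone (median -0.19) and 5 of 7 in A/J (median -0.14). Of all probe sets, 50.9% were lower in DBA/2J and 49.6% in A/J. In DBA/2J 1 AP-1 gene was called, Fos (-0.81 ± 0.10, limma adjusted p = 0.00284), against 0.0333% of all probe sets called lower. This contrast led to the family, and Fos followed Egr1 and Egr2 over the same arrays. Nothing is therefore read from that p value. Fos had 7.76, 8.12, 7.81 and 8.18 in DBA/2J risperidone mice, against 8.66, 8.94, 8.66 and 8.84 in DBA/2J controls. In A/J it had 7.92, 7.88, 7.76 and 7.93 in risperidone mice, against 8.35, 8.38, 8.43 and 8.53 in controls. In A/J, Fos differed by -0.55 ± 0.10 (limma adjusted p = 0.123) and its highest risperidone array (7.93) lay below its lowest control (8.35). Jun (-0.37 ± 0.11, limma adjusted p = 0.556) and Junb (-0.30 ± 0.10, limma adjusted p = 0.653) were also lower there without overlap. Of all probe sets, 2.08% were lower without overlap in A/J. Fosb had 0.11 ± 0.10 in A/J (limma adjusted p = 0.987). Between control mice Fos had 0.35 ± 0.10 for DBA/2J minus A/J (limma adjusted p = 0.0569) and Fosl2 had 0.32 ± 0.09 (limma adjusted p = 0.0531), and neither passed. Of the 10 zinc finger factors with overlapping GC-box sites, such as Sp1 and Wt1, 0 were called for risperidone, and their median was -0.02 in DBA/2J, against 0.05 in A/J.

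**Figure D4:**
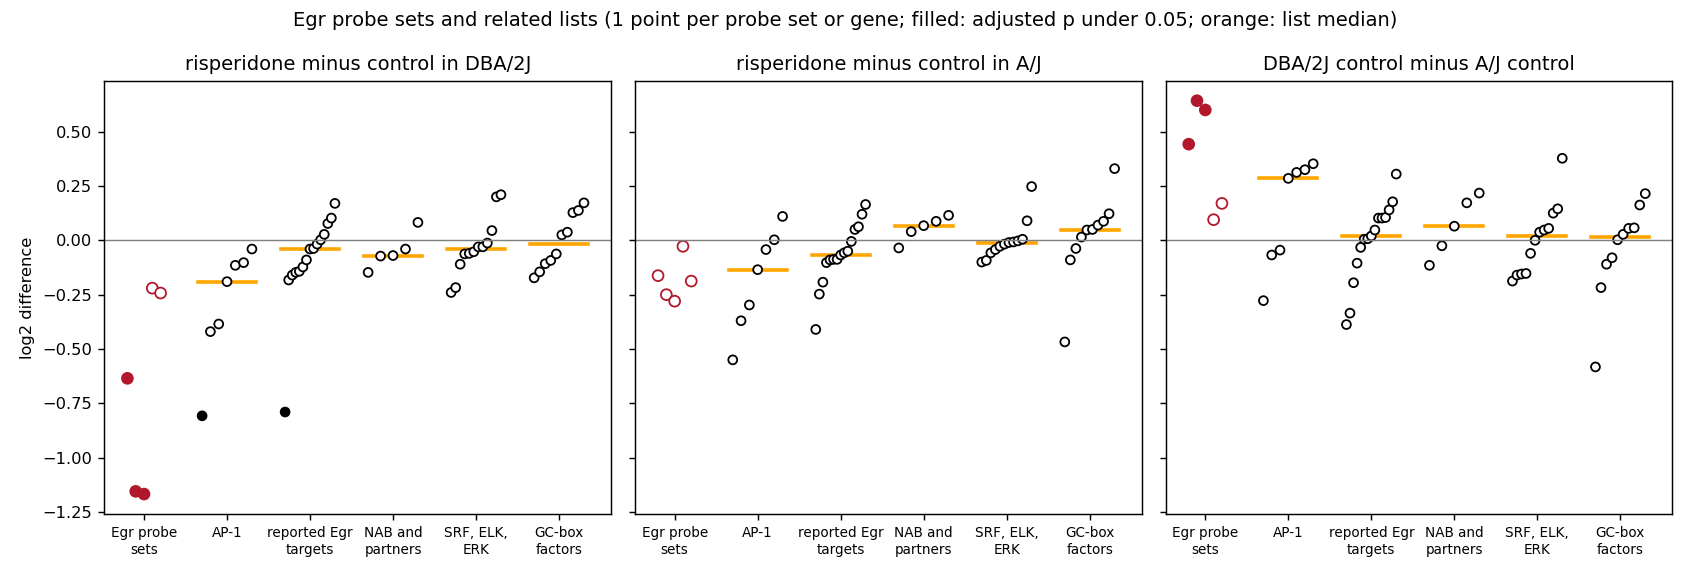
Log2 differences of Egr probe sets (red) and of the genes of 5 related lists (black) in 3 comparisons; filled points had a limma adjusted p under 0.05 over all probe sets and orange lines are list medians. For risperidone in DBA/2J, Fos and Arc are the 2 filled points outside the Egr family.

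Markers of neighbouring regions and other cells were described beside the Egr values. None was called for risperidone in DBA/2J, where 50.9% of all probe sets had a difference below 0. For risperidone in DBA/2J, cortical pyramidal neuron markers were lower in 7 of 10 (median -0.16), with levels of 8.21 to 8.47 after risperidone and 8.43 to 8.56 in controls. Lower values were those of Lamp5 (-0.45 ± 0.14), Rorb (-0.44 ± 0.15) and Fezf2 (-0.30 ± 0.10), while Slc17a7 had 0.12 ± 0.13, and none passed (limma adjusted p = 0.273, 0.311, 0.311 and 0.775). Striatal projection neuron markers were higher in 6 of 10 (median 0.18), choroid plexus and ependyma markers in 8 of 9 (0.26), oligodendrocyte markers in 6 of 8 (0.17), thalamus markers in 5 of 7 (0.15) and astrocyte markers in 6 of 8 (0.12). Microglia (0.06), endothelial and mural cell (0.0075) and blood markers (0.11) had medians nearer 0, except that the 6 blood markers were all higher in A/J (median 0.43).

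Between control mice, cortical markers were higher in DBA/2J in 7 of 10 (median 0.14, Fezf2 called at 0.47 ± 0.10, limma adjusted p = 0.0104). Oligodendrocyte markers were lower in 8 of 8 (median -0.44), at 7.95 to 8.29 in DBA/2J against 8.43 to 9.10 in A/J controls, thalamus markers in 7 of 7 (-0.34) and microglia markers in 8 of 8 (-0.30). In this comparison the median over all probe sets was 0.0125, and 1745 of all 45037 probe sets were called in either direction. Called lower in DBA/2J were the striatal genes Pde10a and Ppp1r1b, Plekhg1 of the thalamus list, the myelin genes Mog and Mag, the astrocyte gene Gfap and the microglia genes P2ry12 and Cx3cr1. For risperidone in A/J, oligodendrocyte markers were lower in 8 of 8 (-0.14) and striatal markers in 7 of 10 (-0.12), with 0 called. Of all probe sets, 49.6% had a difference below 0 there. With the mean level of the cortical markers as a covariate, Egr2 had -1.22 ± 0.15 for risperidone in DBA/2J and 0.70 ± 0.14 between controls, both called, and Egr1 had -0.56 ± 0.12 and 0.38 ± 0.12, neither called. With oligodendrocyte markers as the covariate, Egr2 had 0.70 ± 0.17 between controls and Egr1 0.45 ± 0.15, neither called, and with thalamus markers Egr1 had 0.40 ± 0.12 and was not called. These covariates were added after the data had been seen, and the part of other cell types beyond them was not tested.

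**Figure D5:**
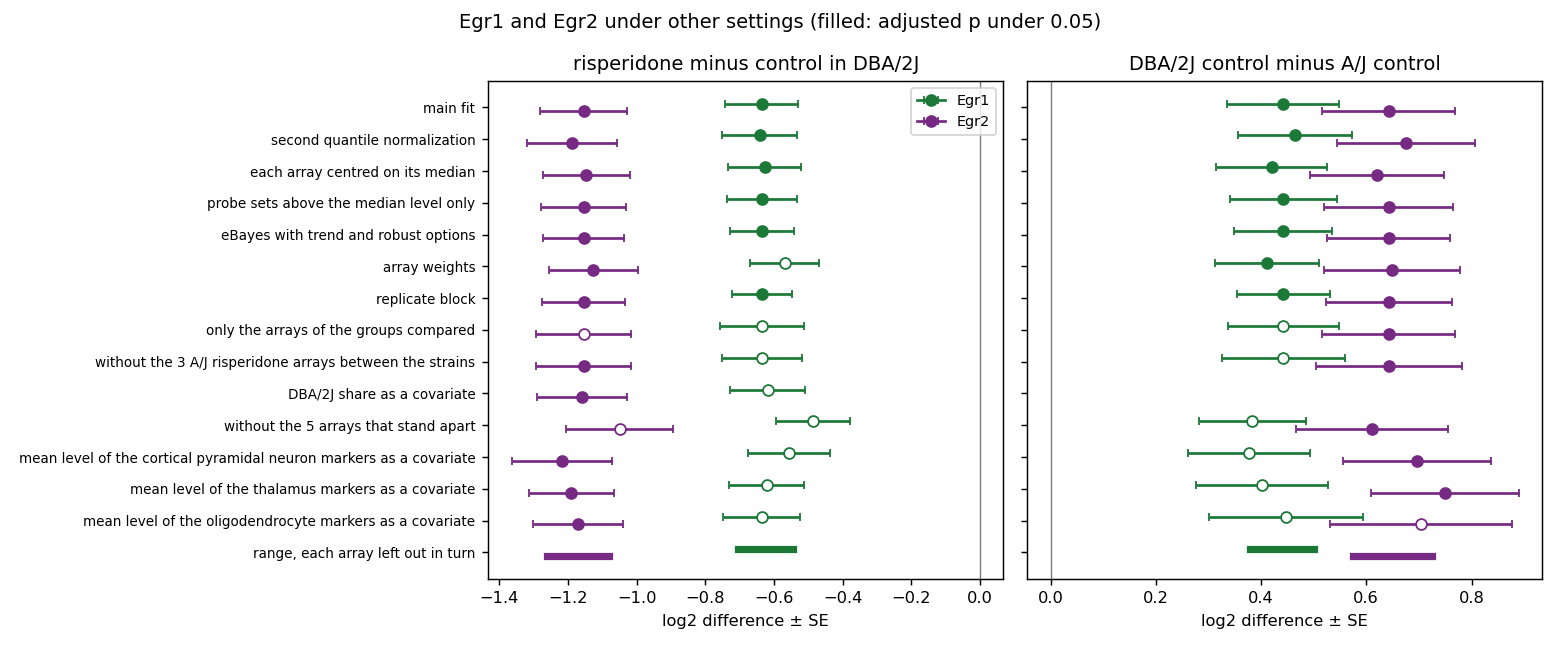
Log2 differences ± SE of Egr1 and Egr2 under the reported model and the other settings, for risperidone in DBA/2J (left) and for DBA/2J against A/J controls (right); filled points had an adjusted p under 0.05, and thick bars give the range with each array left out in turn. Every difference keeps its sign, while several lose the call.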

How the data were processed

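RNA of 16 striatal samples was measured on Affymetrix mouse arrays. The deposited values are log2 levels per probe set, used here unchanged; per the submitters' processing notes the authors used RMA, with no version given. Scanning and array filters are not given in the sources used here. The table has 45141 probe sets, of which 104 are array controls and were not tested. Among the others 28898 name 1 gene, 551 several and 15588 none.

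Means of the 4 groups were estimated jointly over the 16 arrays (limma 3.58.1, R 4.3.3) by lmFit and eBayes, two-sided, with Benjamini-Hochberg adjustment over 45037 probe sets and no filter on low levels. The procedure was tested on simulated data. Members, comparisons and the 14 gene lists (146 entries, 124 matched, 1 probe set per gene by highest mean) were chosen with earlier results of these data known. Named were all members, called list genes, up to 3 list genes with the smallest p for risperidone, and the 5 genes most like each member. Also named, for their known role or their level, were Nab1, Nab2, Srf, Slc17a7 and other cortical and striatal markers. A member's neighbours were ranked by Pearson's r. Strain markers had a log2 difference of at least 1.5, a level of at least 7 and an adjusted p under 0.01 between controls; a control array was scored by markers chosen without it. Alternatives were other scalings, filters and model options, covariates, and fits without single or several arrays. Precision is limited by 4 arrays per group. Figures were drawn with matplotlib 3.10.9.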

Additional observations from a re-analysis of the deposited data

How the results depend on the processing

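The count of Egr probe sets called was 3 for risperidone in DBA/2J and was 0 with the 8 DBA/2J arrays alone and 0 without the 5 arrays that stand apart. Averaged over strains it was 2, against 0 without the 3 A/J risperidone arrays of mixed strain signal, 1 with the DBA/2J share as a covariate and 0 without the 5 arrays. Between controls it was 3, against 1 without the 5 arrays and 0 with oligodendrocyte markers as a covariate. With each array left out in turn the counts were 2 to 3 in these 3 comparisons and 0 to 0 in the others. Array weights, trend and robust options, leaving out dim probe sets, centring arrays on their medians and renewed quantile scaling kept each count within 1.5 times.

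Replicate numbers were not taken as pairs in the reported model. Same-numbered arrays correlated at -0.06 to 0.17 after group means were removed, and 1 or 2 of 4 pairs in a comparison exceeded 0.1. Arrays correlated best with their own number in 6 of 8 cases for risperidone in DBA/2J, 2 of 8 in A/J, 5 of 8 between controls and 2 of 8 between risperidone groups. With the replicate block 3 probe sets were called in DBA/2J, 3 averaged over strains and 3 between controls, and Egr2 had -1.16 ± 0.12 for risperidone in DBA/2J. Egr1 had -0.64 ± 0.09 there, against an SE of 0.11 without the block. Whether arrays of the same number were handled together was not tested.

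Signs turned only for differences that did not pass, which lay from -0.19 to 0.10 in the reported model. For the response of DBA/2J less that of A/J, Egr3 turned to 0.0025 with the DBA/2J share as a covariate and 0.0575 without the 5 arrays. Egr4 turned to 0.18 without the 3 arrays, 0.12 with the share, 0.25 without the 5 arrays, 0.0211 with cortical and 0.0354 with oligodendrocyte markers, and ranged from -0.14 to 0.0308 with 1 array left out. Between controls Egr3 turned to -0.0335 with oligodendrocyte markers. Between risperidone groups Egr1 turned to 0.0775 without the 3 arrays and 0.17 without the 5, ranging from -0.10 to 0.0592 with 1 array left out, and Egr3 turned to 0.0925 and 0.13. In A/J, Egr3 ranged from -0.10 to 0.04 with 1 array left out. The settings without the 5 arrays and with marker covariates were chosen after seeing the data. The cause of each change was not tested.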
